A study of Mus musculus with 16 samples.

Results

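The 39 protein-coding Hox genes of the Hoxa, Hoxb, Hoxc and Hoxd clusters were examined in ATAC-seq peak lists of 4 stages of mouse thymocytes. The genes were chosen by symbol from the GENCODE M21 annotation of mm10, which holds 20807 protein-coding genes on chromosomes 1 to 19. The rule used no measured value, though earlier results of these data were known when it was set. A cluster was taken as the span from its first to its last Hox gene with 20 kb on either side. These 4 windows held 203 of the 185978 regions that remained when overlapping peaks of the 4 lists were merged (1 bp of overlap sufficed). The Hoxa window on chromosome 6 held 11 genes, Hoxb on chromosome 11 held 10, and Hoxc on chromosome 15 and Hoxd on chromosome 2 held 9 each.

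ATAC-seq measures open chromatin by the insertion of sequencing adapters into accessible DNA. The thymocytes came from 4 wild type C57BL/6J mice that were 9 weeks old, and all 4 stages were sorted from the same mice. Double negative cells (DN) carried neither CD4 nor CD8, and double positive cells (DP) carried both. The 2 single positive groups were CD4+ CD8- cells (SP4) and CD4- CD8+ cells (SP8), both CD3+. Cells with markers of other blood lineages were sorted out at every stage, and the DN gate also excluded CD3+ cells. The stated gates name no CD44 or CD25, so the successive steps within the DN compartment were not separated. The reads of the 4 mice of a stage were pooled before peaks were called, which left 1 list per stage and no spread between mice. The lists held 150139 (DN), 107110 (DP), 115074 (SP4) and 104411 (SP8) peaks, and comparisons between stages are descriptions of these lists. Peak height is given as a percentile, the share of all peaks of the same list with a lower fold enrichment over local background.

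Hox genes encode homeodomain transcription factors that set position along the body axis in the embryo. They lie in the order in which they act, from anterior genes with low numbers to posterior genes with high numbers, and genes with the same number in different clusters are paralogues. In blood, several Hoxa and Hoxb genes are known to be expressed in stem and progenitor cells and to decline as cells mature, and in cells that do not express them the clusters are a classical target of Polycomb repression.

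Beside the average of chromosomes 1 to 19, the Hox clusters were dense in called peaks at every stage. The clusters differed in how many peaks remained in the single positive lists. The 4 windows together held 169 (DN), 109 (DP), 105 (SP4) and 91 (SP8) peaks, or 25.9, 16.7, 16.1 and 14 per 100 kb. Over chromosomes 1 to 19 the density was 6.1, 4.35, 4.67 and 4.24 per 100 kb, so that the windows were 4.25, 3.84, 3.45 and 3.29 times as dense. The windows are also dense in genes, with 39 Hox genes in 651815 bp beside 20807 protein-coding genes in 2462745373 bp. The comparison was not matched for gene density. Most of these peaks were low. Their median percentile was 29.9 (DN), 36 (DP), 34.4 (SP4) and 28.3 (SP8), and 12, 9, 5 and 12 of them were above the 75th percentile of their list.

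The later stages had most of the DN number of peaks at Hoxa and Hoxb and the smallest part of it at Hoxc. Hoxa held 43 (DN), 35 (DP), 38 (SP4) and 36 (SP8) peaks. Hoxb held 45, 35, 34 and 32 peaks in the same order. Hoxc held 44, 18, 12 and 9 peaks, the lowest count of the 4 clusters from DP onwards. Hoxd held 37, 21, 21 and 14 peaks. The SP8 count was therefore 0.837 of the DN count at Hoxa, 0.711 at Hoxb, 0.378 at Hoxd and 0.205 at Hoxc, beside 0.695 for the whole lists. At SP8 the density of peaks was 5.84 times that of chromosomes 1 to 19 at Hoxa and 1.36 times at Hoxc, whereas the DN values had been 4.85 and 4.63.

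The excess of DN peaks was not present with lists of equal length, a cut that was strictest for DN. When each list was cut to its 104411 peaks with the lowest q-values, the 4 windows held 87 (DN), 104 (DP), 91 (SP4) and 91 (SP8) peaks. The cut kept DN peaks with a −log10 q-value of at least 8.9, beside 2.97 (DP), 4.49 (SP4) and 1.33 (SP8). Low DN peaks were thus removed while peaks of the same q-value stayed in the other lists. With a q-value of at most 0.001 in every list, the windows held 166, 104, 100 and 87 peaks from DN to SP8. Under the cut to equal length Hoxa held 21, 34, 33 and 36 peaks from DN to SP8 and Hoxb 27, 33, 30 and 32. DN was then the lowest stage in both. Hoxc held 19, 17, 12 and 9 peaks and Hoxd 20, 20, 16 and 14, so that both single positive lists remained below DN. The ratio of SP8 to DN was 1.71 at Hoxa, 1.19 at Hoxb, 0.7 at Hoxd and 0.474 at Hoxc. The order of the clusters was thus the same with and without the cut, and only the level of the ratios moved.

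**Figure D1:**
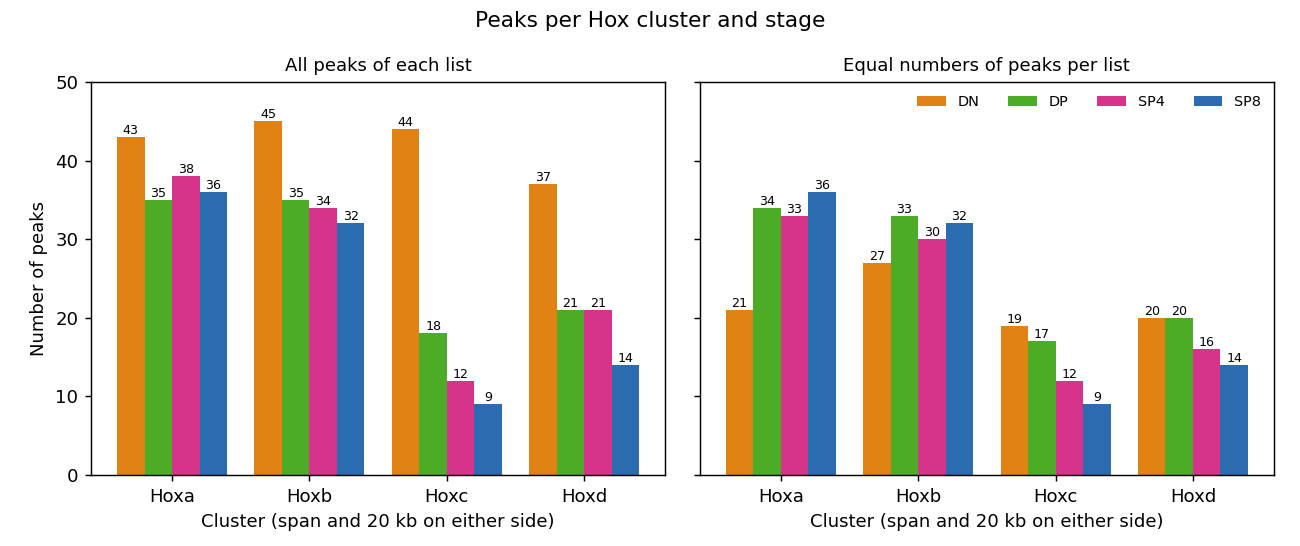
Number of peaks (vertical axis) in each Hox cluster with 20 kb on either side (horizontal axis), with 1 bar per stage and the count above it, for all peaks (left) and for the 104411 peaks of lowest q-value of each list (right). The Hoxc bars go from 44 to 9 peaks on the left and from 19 to 9 on the right, while Hoxa holds 36 peaks at SP8 in both panels.

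The same contrast appeared when regions were followed across stages. Of the regions with a DN peak, 26 of 40 at Hoxa were also called at SP8 (65%, 95% Wilson interval 49.5 to 77.9) and 28 of 44 at Hoxb (63.6%, 48.9 to 76.2). At Hoxd this held for 10 of 36 (27.8%, 15.8 to 44) and at Hoxc for 8 of 43 (18.6%, 9.74 to 32.6). Over all regions the share was 56.1%. The intervals cover counting error only, and neighbouring regions of a cluster are not independent. The intervals of Hoxc and Hoxd lay below those of Hoxa and Hoxb. With lists of equal length all shares were higher, at 85% for Hoxa (17 of 20, 64 to 94.8), 84.6% for Hoxb (22 of 26, 66.5 to 93.8) and 36.8% for both Hoxc and Hoxd (7 of 19 each, 19.1 to 59), beside 69.4% over all regions. At DP, 14 of 43 DN regions of Hoxc were called (32.6%, 20.5 to 47.5) and 26 of 40 of Hoxa (65%, 49.5 to 77.9), beside 59.5% of all regions. With lists of equal length the share at Hoxc was 47.4% (9 of 19, 27.3 to 68.3), beside 73% of all regions. At Hoxd, 17 of 36 DN regions were called at DP (47.2%, 32 to 63) and 12 of 36 at SP4 (33.3%, 20.2 to 49.7), where the share of all regions was 58.2%. With lists of equal length the Hoxd shares were 57.9% (36.3 to 76.9) and 47.4% (27.3 to 68.3), the latter beside 68.6% of all regions.

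**Figure D2:**
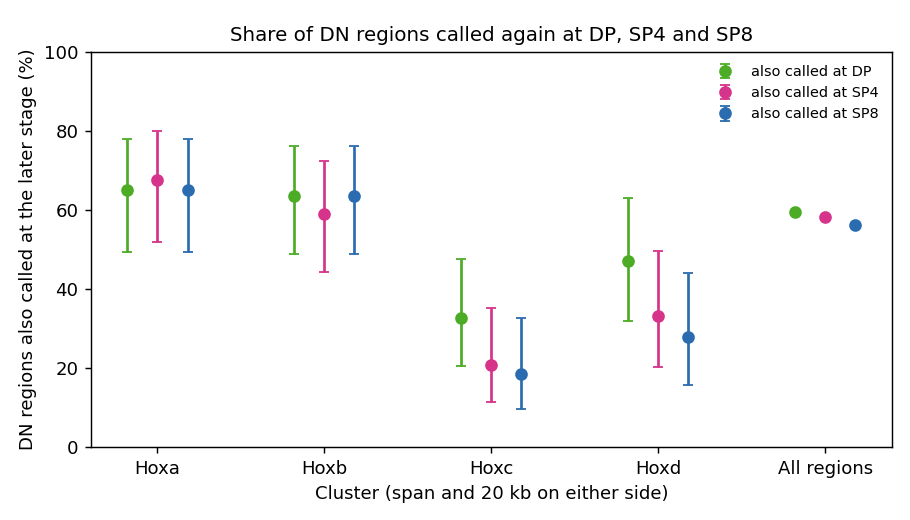
Share of the regions called at DN that were also called at DP, SP4 or SP8 (percent, vertical axis) in each Hox cluster and over all regions (horizontal axis), as points with 95% Wilson intervals. At SP8 the share is 65% at Hoxa and 63.6% at Hoxb, and 27.8% at Hoxd and 18.6% at Hoxc.

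Of the 203 regions, 57 were called at all 4 stages (28.1%, background over all merged regions 34.1%) and 60 at DN alone (29.6%, background 21.7%). Regions called at a single other stage were few, with 5 at DP (2.46%, background 5.17%), 16 at SP4 (7.88%, background 7.39%) and 7 at SP8 (3.45%, background 4.21%). With lists of equal length, 45 regions were called at all 4 stages, and 17, 15, 20 and 13 at DN, DP, SP4 or SP8 alone. These are 29.2, 11, 9.74, 13 and 8.44% of the 154 regions then left in the windows, beside 36.8, 11.1, 8.12, 7.57 and 7.05% of all regions. The regions of all 4 stages lay mostly in Hoxb (24 of 54, 44.4%) and Hoxa (21 of 55, 38.2%), with 7 of 46 in Hoxd (15.2%) and 5 of 48 in Hoxc (10.4%). Of the Hoxc regions 24 of 48 (50%) were called at DN alone, as were 15 of 46 in Hoxd, 13 of 54 in Hoxb and 8 of 55 in Hoxa. Another 18 regions were shared by DN and DP alone (8.87%, beside 5.59% of all regions), 8 of them in Hoxc and 6 in Hoxd. SP4 and SP8 alone shared 1 region (0.493%, beside 3.82% of all regions).

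Regions of all 4 stages were compared with DN-only regions by their DN peak alone, since a merged region of several stages is wider and has more values to be highest in. In the Hox windows the DN peaks of regions of all 4 stages had a median width of 243 bp and a median percentile of 48.6, and those of DN-only regions 119.5 bp and 21.3. Over all regions the same medians were 356 bp and 73.5, and 154 bp and 30.2. The Hox medians of both classes were therefore lower than those of all regions, and the contrast between the classes was present over all regions too. The highest DN-only region, inside Hoxd3, stood at 56.5, so that none passed the 75th percentile of the DN list. The next highest DN-only regions lay in the coding exon of Hoxc12 (50.9), within Hoxc4 (48.5) and in the coding exon of Hoxc11 (48.4). By position, 9 of 20 regions at promoters were called at all 4 stages, as were 16 of 48 between Hox genes, 14 of 48 at coding exons, 12 of 51 in introns, 5 of 24 in the flanks and 1 of 12 in other exons. The shares of these positions over all regions were not counted.

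**Figure D3:**
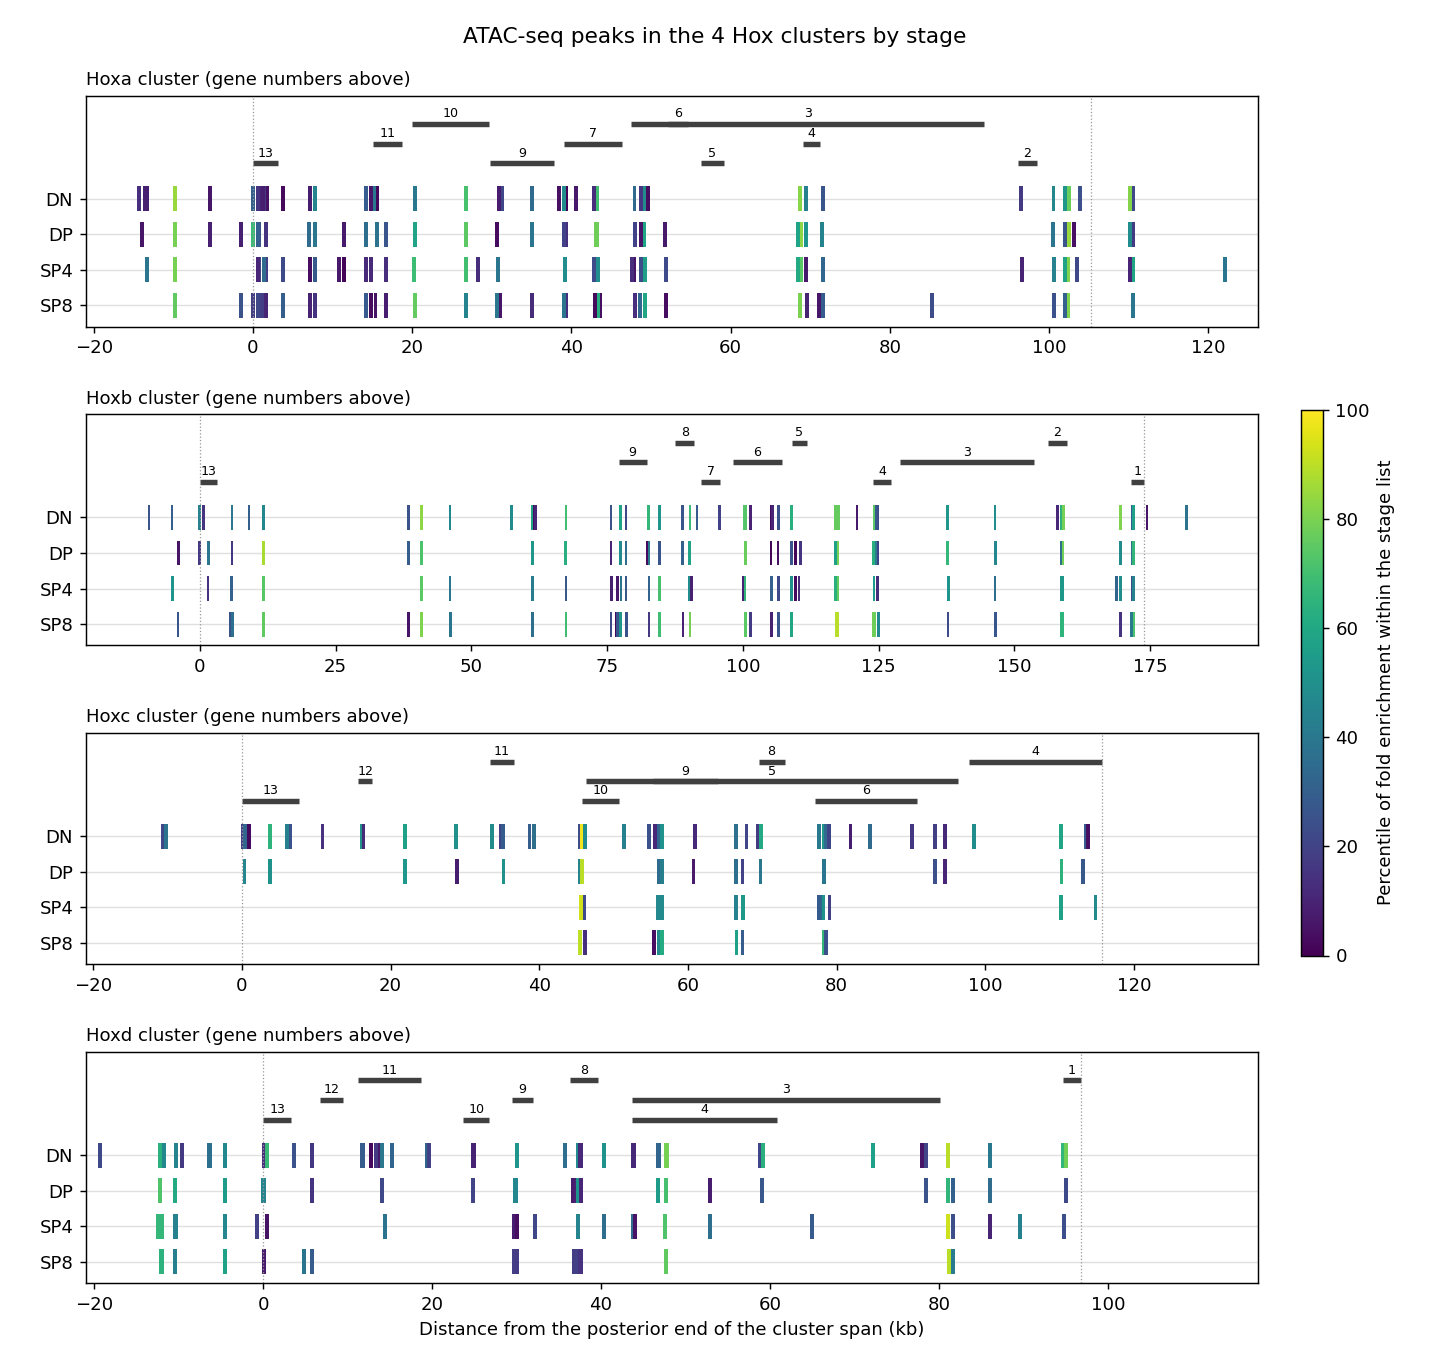
Peaks of the 4 lists along each Hox cluster (horizontal axis, kb from the posterior end of the cluster span, Hoxa being turned to the same orientation), with 1 row per stage and the colour giving the percentile of fold enrichment within the list. Bodies of 38 genes are drawn above with their numbers, narrow peaks are widened to 0.5 kb to be visible, and dotted lines mark the span. The posterior part of Hoxc, at Hoxc11 to Hoxc13, has peaks at DN and none at SP4 and SP8. Hoxa and Hoxb have peaks towards both ends of the span at every stage, with stretches between that hold none.

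The highest peak of the clusters stood at the promoter of Hoxc10, a posterior gene, in the cluster with the fewest single positive peaks. It was enriched 25.5-fold (DN), 16.2-fold (DP), 20.3-fold (SP4) and 18.6-fold (SP8) over local background, which placed it at the 98.1st, 89.5th, 92.9th and 90th percentiles. It was the highest Hoxc peak at every stage. In Hoxd the highest region lay between Hoxd3 and Hoxd1 within Haglr, a long non-coding RNA gene, at chr2:74749234-74749709, 3560 bp from the nearest Hox TSS. It reached the 89.6th, 65.3rd, 92.4th and 89.8th percentiles from DN to SP8, and was lowest at DP. In Hoxb a region between Hoxb13 and Hoxb9 (chr11:96205998-96206205) was at 46.7 (DN), 87.1 (DP), 73.7 (SP4) and 75.6 (SP8), the highest Hoxb peak of the DP list.

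The sequences below show these 3 regions. They are 100 bases around the summit at the stage of the highest percentile, or for Hoxc10 the 100 bases upstream of its TSS, from GRCm38 (mm10), plus strand, 5′ to 3′. Capitals mark matches to any of the consensus motifs searched, which here were 2 copies of an ETS motif (GGAAGT) in the Hoxb region. The Hoxc10 and Hoxd sequences held no match to these letters.
Hoxb13 to Hoxb9, chr11:96206047-96206146: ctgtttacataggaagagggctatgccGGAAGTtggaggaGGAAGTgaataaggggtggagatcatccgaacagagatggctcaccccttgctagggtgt
Hoxc10 upstream, chr15:102966696-102966795: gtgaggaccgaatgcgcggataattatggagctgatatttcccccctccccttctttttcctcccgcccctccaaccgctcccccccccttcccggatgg
Hoxd3 to Hoxd1, chr2:74749353-74749452: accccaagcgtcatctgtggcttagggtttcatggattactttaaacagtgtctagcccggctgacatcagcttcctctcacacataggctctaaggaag

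A promoter peak, one that touched the 200 bp upstream of an annotated TSS, was less common at Hox genes than over all protein-coding genes. It was found at 15 of 39 Hox genes at DN (38.5%, background 63.5%), 13 at DP (33.3%, background 59.3%), 9 at SP4 (23.1%, background 57.6%) and 10 at SP8 (25.6%, background 57.8%). At all 4 stages it was found at 8 genes (20.5%, background 54.6%), and 22 genes had none at any stage (56.4%, background 34.4%). Within 500 bp on both sides of a TSS, a window chosen after the values were seen, 30 Hox genes had a peak at DN (76.9%, background 69%), 28 at DP (71.8%, background 64%), 22 at SP4 (56.4%, background 62.1%) and 20 at SP8 (51.3%, background 61.7%). In this window the Hox share was above that of all genes at DN and DP and below it in both single positive lists. These differences are of few genes and were not tested. In both planned windows the Hox share was below that of all genes at every stage. Within 1000 bp upstream, 18, 17, 13 and 14 of 39 Hox genes had a peak, beside 67, 62, 60.5 and 60.2% of all genes. Within 500 bp on both sides of a TSS, 16 Hox genes had a peak at all 4 stages. In that window 7 had none at any stage, namely Hoxa5, Hoxb2, Hoxb3, Hoxb7, Hoxc6, Hoxd10 and Hoxd12. The shares of all genes for these 2 counts were not computed, so they are not read against a background. By cluster, the same window of 500 bp on both sides held a peak at 9 of 11 Hoxa genes at each of the 4 stages. For Hoxb it did so at 7, 7, 5 and 6 of 10 genes. For Hoxc the numbers were 8, 6, 2 and 2 of 9, and for Hoxd 6, 6, 6 and 3 of 9.

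Promoter peaks at all 4 stages were found at 4 Hoxa genes, at Hoxb4 and Hoxb5, and at Hoxc9 and Hoxc10. Hoxa4, a central gene, stood at the 82.1st (DN), 82.9th (DP), 74.1st (SP4) and 80.3rd (SP8) percentiles. Hoxa7 stood at 69.7, 77.8, 48.9 and 62, and Hoxb4, known for expanding blood stem cells when overexpressed, at 74.9, 62.9, 54.3 and 78.1. These 3 genes had peaks in the upper part of the lists at nearly all stages. Hoxb5 had the widest range of these 8 genes, at 63.6, 26.4, 51.3 and 58.9, with its low point at DP. Hoxc9 was lower, at 33.3, 34.6, 46.9 and 47.4. Hoxa3, whose gene model spans Hoxa4 to Hoxa6, was low at 34.2, 19.9, 12.6 and 13.4.

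The other promoter peaks were absent from at least 1 list and mostly low. In the 200 bp upstream of a TSS, those of Hoxc8 (16.5), Hoxd1 (66.3) and Hoxd11 (6.5) were called at DN alone. These are 7.69% of Hox genes beside 3.98% of all genes, a difference of few genes that was not tested. Hoxb13 (44 at DN, 16.4 at DP) and Hoxd13 (14 and 45.5) had one at DN and DP. That of Hoxa13 was at 30.3 (DN), 68.3 (DP) and 18.6 (SP8), and that of Hoxa11 at 40 (DN) and 11.8 (SP4). Hoxc4 had a promoter peak at DP alone (27), and Hoxd8 at DP (7.12) and SP8 (17.8). These patterns depend on the window. Within 500 bp of a TSS, Hoxd11 had peaks at DN (39.5), DP (21.5) and SP4 (38.4), and Hoxc4 at DN (29.1) and DP (27). Hoxd8 (47.8, 51.8, 45 and 18.4 from DN to SP8), Hoxa11 (40, 38, 11.8 and 4.99) and Hoxa13 (30.3, 68.3, 10.3 and 21.6) then had one in every list. Hoxd1, an anterior gene, had the highest DN peak of the genes without one at SP8. Within 500 bp of its TSS it stood at 78.2 at DN, 21.9 at DP and 24 at SP4, and had no peak at SP8. Hoxd4 stood at 63.6 at DN and 27 at DP and had none in the single positive lists, and Hoxc8 followed the same course with 60.9 and 39.6. Hoxd13, the most posterior Hoxd gene, went from 67.4 and 45.5 to 4.91 and 7.41. Conversely, Hoxa10, a posterior gene expressed in blood progenitors, stood at 40.6, 57.9, 68.7 and 75.9 from DN to SP8, with folds of 4.81, 6.42, 9.16 and 11.8. Hoxa9, its neighbour and a known driver of leukaemia, had a low or absent peak in this window, at 34.2, 38.9 and 12.4 at DN, DP and SP8 and none at SP4.

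**Figure D4:**
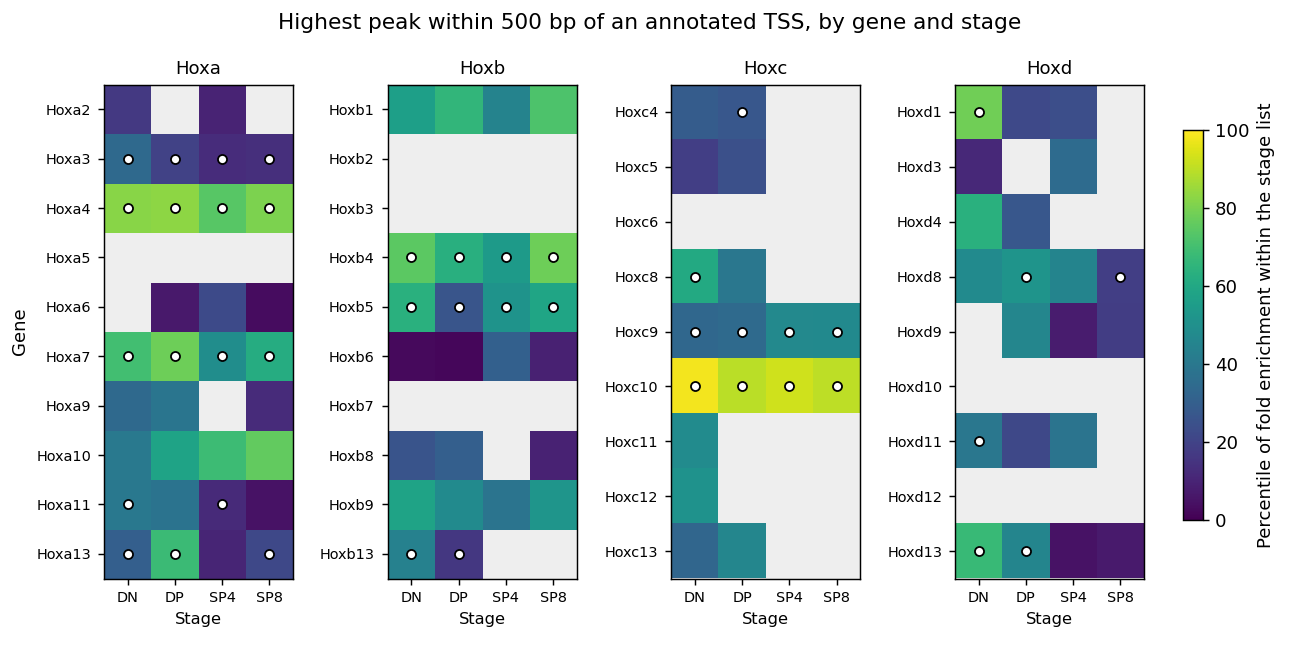
Highest peak within 500 bp of a TSS for 38 of the 39 Hox genes (rows) at the 4 stages (columns), the colour giving the percentile of fold enrichment within the list and grey no peak. White dots mark genes with a peak at the 200 bp upstream of a TSS. Of the 10 Hoxa genes drawn 8 are coloured at each stage, while 6 of the 8 Hoxc genes coloured at DN are grey at SP4 and SP8.

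Counting gene bodies as well, 36 Hox genes held a peak at DN (92.3%, background 78.6%), 33 at DP (84.6%, background 73.4%), 30 at SP4 (76.9%, background 73%) and 25 at SP8 (64.1%, background 71.8%). At all 4 stages 25 genes held one (64.1%, background 69.6%). Hoxa5, Hoxa6 and Hoxd12 held none at any stage (7.69%, background 20.3%). At DN but not at SP8, 11 genes held one (28.2%, background 7.3%), and at SP8 but not at DN, 0 genes (background 0.514%). With lists of equal length, 8 genes held a peak at DN but not at SP8 (20.5%, beside 5.08% of all genes) and 0 the reverse (beside 1.25%). By position in the clusters, 8 of 8 anterior genes (numbers 1 to 3) held a peak at DN and 6 at SP8, 13 and 10 of 15 central genes (4 to 8), and 15 and 9 of 16 posterior genes (9 to 13). Long gene models count peaks of their neighbours. That of Hoxc5 spans several Hoxc genes and held 19 peaks at DN but 7 at SP8, and the models of Hoxd3 and Hoxd4 overlap.

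Assigning each peak to its nearest Hox TSS avoided this. Posterior genes then had 89, 48, 43 and 45 peaks from DN to SP8, central genes 48, 38, 33 and 29, and anterior genes 32, 23, 29 and 17. The ratio of SP8 to DN was 0.506, 0.604 and 0.531, so the position of a gene along the clusters separated the counts less than the cluster it belonged to. The posterior end of Hoxc had no peak in the single positive lists. Hoxc11, Hoxc12 and Hoxc13 had 6, 4 and 8 peaks at DN and 2, 1 and 2 at DP, and had 0 in both single positive lists. Hoxa13, the paralogue of Hoxc13 in Hoxa, had 13 peaks at DN, 9 at DP and 8 at each of SP4 and SP8.

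Between and within genes, several further regions were called at all 4 stages. In Hoxb, a region at chr11:96234971-96235398, 36059 bp from Hoxb9, stood at 83 (DN), 71.6 (DP), 74.4 (SP4) and 80.5 (SP8). A region within Hoxb6 stood at 73.4, 77, 65.5 and 74.5. The coding exon of Hoxb2, an anterior gene, was at 79.2, 78.4, 53.5 and 65.1, and that of Hoxb8 at 67.7, 57.9, 48.6 and 79.2. In Hoxa, the flank beyond Hoxa13 (chr6:52270515-52270789) held the highest Hoxa peak of the DN list, at 84.4, 79.6, 79.4 and 75.5. In Hoxd, the region in Hoxd3 and Hoxd4 (chr2:74715776-74716322) stood at 79, 70.5, 72.1 and 75.4, and one in Evx2, the homeobox gene next to Hoxd13, at 63.9, 72.4, 66.5 and 64.4, the highest Hoxd peak of the DP list. These 7 regions stayed above the 48th percentile throughout.

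Other regions of this class stood at different heights in the lists. The same fold enrichment gives different percentiles in lists of different length and height, and the folds are therefore given as well. A region 1730 bp from Hoxb1 (chr11:96363735-96364022) stood at 80.8, 48.1, 48.7 and 14.7 from DN to SP8, with fold enrichments of 11.7, 5.3, 5.77 and 3.47. The coding exon of Hoxd9 went from 52.4 and 46 to 7.81 and 18.1, with folds of 5.82, 5.14, 3.09 and 3.64. That of Hoxa4 went from 43.2 and 52.3 to 6.87 and 9.75, with folds of 4.99, 5.72, 3.08 and 3.16. A region between Hoxb9 and Hoxb8 (chr11:96276740-96277124) went from 66.3 to 41.3, 31.1 and 16.9, with folds of 7.86, 4.69, 4.34 and 3.54. In these 4 regions both single positive folds were below the DN fold. In the other direction, a region 2806 bp from Hoxb8 was at 52.3, 26.1, 70.4 and 69.3, with folds of 5.81, 3.91, 9.59 and 9.82. In Hoxc, apart from Hoxc10, the 4 regions called at all stages lay between the 33.3rd and the 66.2nd percentiles, and each was higher at SP8 than at DN. The regions called at SP4, SP8 or DP alone reached at most 47.4 (the coding exon of Hoxc4 at SP4), 38.5 (between Hoxd13 and Hoxd12 at SP8) and 27 (the promoter of Hoxc4 at DP).

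Motif matches were counted in the 100 bp around peak summits, on both strands and without mismatch, beside the share over all peaks of the same list. The RUNX motif (TGTGGT), bound by factors central to T cell development, was found at 10.1% of Hox peaks at DN (6.38 to 15.5) and 4.59% (1.98 to 10.3), 5.71% (2.64 to 11.9) and 3.3% (1.13 to 9.25) at DP, SP4 and SP8. The share over all peaks was 16.8, 13.2, 13.3 and 14.5%, above the interval at every stage. The intervals cover counting error only, and neighbouring peaks of a cluster are not independent. Many regions were called in several lists, so the 4 stages are not separate results, and the difference was not tested. The ETS motif was found at 8.88, 12.8, 8.57 and 11% of Hox peaks, and 14.6, 16.3, 16.1 and 14.7% of all peaks, and the E-box CAGCTG at 8.88, 5.5, 6.67 and 3.3% against 13.2, 12.2, 8.39 and 8.52%. The HOX-PBX motif (TGATNNAT) was found at 1.78, 1.83, 2.86 and 3.3% of Hox peaks, close to the 1.77, 1.57, 2.09 and 1.98% of all peaks. The motif of posterior Hox proteins (TTTATNG) was found at 3.55 (1.64 to 7.53), 0.917, 2.86 and 2.2% of Hox peaks, and 1.89, 1.74, 2.14 and 2.05% of all peaks. It was present in 4 of the 60 DN-only Hox regions (6.67%) beside 2.01% of all DN-only regions, a difference of few regions that was not tested. The GATA motif (AGATAA) was found at 1.18, 0.917, 1.9 and 0% of Hox peaks and 3.14, 2.76, 3.55 and 3.05% of all peaks. The TCF and LEF motif (CTTTGAT) was found at 1 Hox peak, at DP (0.917%), and at 1.6, 1.61, 2.09 and 1.87% of all peaks. The windows at Hox summits were richer in G and C, with a median of 60, 63, 59 and 62% against 54, 54, 52 and 53%, and the part of base composition in these shares was not tested.

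CTCF, the factor that marks boundaries between chromatin domains, has a long motif of which a core of 12 positions was found at 1.18 (DN), 0.917 (DP), 0.952 (SP4) and 1.1% (SP8) of Hox peaks, and at 2.25, 2.13, 2.47 and 3.22% of all peaks. A relaxed form with the G at position 8 left free, which includes the core and was added after the values were seen, matched 2.96, 3.67, 3.81 and 5.49% of Hox peaks and 5.37, 5.14, 5.7 and 7.16% of all peaks. With 1 window per region, at the summit of the stage with the highest percentile, it matched 8 of the 203 regions, and 4 of these had a peak in each list. With the summits of every stage, 9 regions matched, 3 of them with the core. The added region lay in the promoter of Hoxa11 and matched at DN, where it stood at 6.19. In the 8 regions the median distance of the match from the summit was 6 bp and the largest 42 bp, and 7 matches were on the minus strand. These 8 matches are shown with 9 bases on either side, on the strand of the match, 5′ to 3′ in GRCm38, with the match in capitals, because they let the regions be compared base by base.
Hoxa3 intron, chr6:52211273-52211302, minus: aaggcagctCCAGGAGAGGGCtggtaactg
Hoxa7, chr6:52221800-52221829, minus: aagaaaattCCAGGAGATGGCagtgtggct
Hoxa10, chr6:52240532-52240561, minus: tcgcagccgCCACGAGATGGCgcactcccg
Hoxb9 side, chr11:96261744-96261773, minus: cgcgaccgaCCTCTAGGCGGCgccctggcg
Hoxc13 flank, chr15:102910864-102910893, minus: cttctccagCCGAAAGCAGGCgaagggaaa
Hoxc13 exon, chr15:102921466-102921495, plus: catcccagcCCCGGAGGCGGCgcgccaatg
Hoxc9, chr15:102977687-102977716, minus: tcttctgtgCCCCCAGCGGGCcatcccggc
Hoxd13 to Hoxd12, chr2:74673169-74673198, minus: gccaaacgcCCAGGAGATGGCgagcgtgct

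The regions with these matches differed in their course. That of Hoxa10, whose match lay 2 bp from the summit, went from 40.6 to 75.9, as given above for its TSS. That of Hoxa7 stood at 48.4 (DN), 19.7 (DP), 48.6 (SP4) and 38.5 (SP8). The match between Hoxd13 and Hoxd12 was in a region called at SP8 alone (38.5), and its 12 bases are those of the Hoxa7 match. The region 9596 bp from Hoxb9 stood at 69.8, 62.8, 27.4 and 69.5 and held the core, as did the region in the coding exon of Hoxc13, called at DN (33.1) and DP (46), and that of the Hoxa11 promoter.

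The clusters also hold microRNA genes, short RNAs that repress messenger RNAs through their seed, bases 2 to 8. The mature sequences from RefSeq (GRCm38.p6) fall into 2 seed families with members in different clusters, shown 5′ to 3′ with the seed in capitals.
miR-10a-5p, Hoxb: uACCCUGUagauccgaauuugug
miR-10b-5p, Hoxd: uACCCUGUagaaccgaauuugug
miR-196a-5p, Hoxb and Hoxc: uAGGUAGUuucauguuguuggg
miR-196b-5p, Hoxa: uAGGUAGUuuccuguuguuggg

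Genes of the same seed family differed in the peaks near them. The hairpin of miR-196b, within the Hoxa9 gene model at chr6:52230081-52230165, lay in a region called at all 4 stages, which stood at 7.55 (DN), 3.06 (DP), 38.7 (SP4) and 40.2 (SP8). The 2 genes for miR-196a had no such peak. The copy in Hoxc had a DN peak within 1000 bp (43) and none later, and the copy in Hoxb had none at any stage, its nearest region being 3303 bp away. Mir10a lay 868 bp from the Hoxb4 promoter region, called at all 4 stages, whereas Mir10b in Hoxd had a single peak within 1000 bp, at DN (21.3). Mir615, within Hoxc5, had peaks within 1000 bp at DN (18.6) and DP (24.5) and none at SP4 or SP8. Of the 21 long non-coding genes in the windows, 6 had a promoter peak at DN (28.6%, background over the 12625 such genes of chromosomes 1 to 19 22.4%), 5 at DP (23.8%, background 19.5%), 5 at SP4 (23.8%, background 19.4%) and 3 at SP8 (14.3%, background 19%). Hotair, in Hoxc, and Hottip, beside Hoxa13, had no promoter peak at any stage.

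Promoter peaks were also counted at genes that work with or on the Hox genes, to be read beside the 63.5, 59.3, 57.6 and 57.8% of all protein-coding genes with one. Of the 9 cofactor genes of the PBX, MEIS and PKNOX families, whose proteins bind DNA with Hox proteins, 9 (DN), 7 (DP), 8 (SP4) and 8 (SP8) had one. Meis1, a partner of Hoxa9 in leukaemia, was at 75.8, 51, 28.5 and 39.1 from DN to SP8, and Meis2 had a promoter peak at DN alone (14.6). Of 15 genes for Polycomb proteins, 14 had a promoter peak at each stage, the exception being Pcgf2. Of 10 upstream activators 7 had one at each stage. Rarb, a retinoic acid receptor gene, had one at DN alone (55.2), Kmt2a, whose protein methylates histone H3 at Hox genes, had a low one at the 3 later stages (6.49, 0.886 and 5.55), and Cdx1 and Cdx2 had none at any stage. Homeobox genes outside the clusters had promoter peaks at 12, 8, 5 and 5 of 30. They had any peak at 30, 21, 17 and 17 of 30, beside 78.6, 73.4, 73 and 71.8% of all genes. A drop from DN to SP8 in genes with any peak was thus not particular to the Hox genes (36 to 25 of 39). Among the 18 genes that neighbour the clusters, 14, 13, 14 and 15 had promoter peaks.

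Marker lists were read in the same way to see what the gates held. Of 10 T cell markers, 9, 9, 10 and 10 had a promoter peak from DN to SP8. Early progenitor markers went from 9 and 7 to 5 and 5 of 10. Of these, 2 had a promoter peak at DN alone, Cd34 (96.3) and Spi1 (12.6). Another 4, Kit, Flt3, Lmo2 and Mef2c, had one at all 4 stages. Fibroblast markers had 4, 3, 2 and 2 of 10, endothelial markers 5, 5, 4 and 4 of 10, thymic epithelial markers 3, 3, 1 and 2 of 10, myeloid markers 4, 2, 2 and 2 of 10, and neuron markers 6, 2, 2 and 2 of 10. B cell markers had 4, 4, 4 and 5 of 10, erythroid markers 4, 3, 2 and 3 of 7, natural killer and innate lymphoid markers 7 of 10 at each stage, and hepatocyte markers 1, 1, 1 and 0 of 9. Several lists were thus higher at DN together with the Hox genes, including that of neurons, and their part in the Hox values was not tested.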

How the data were processed

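ATAC-seq libraries of DN, DP, SP4 and SP8 thymocytes from 4 mice were described by 1 peak list per stage. The authors aligned reads to mm10, removed duplicates, capped libraries at the median depth, combined the mice of each stage, and used MACS2 with an FDR of 5% for the calls. The deposited fold enrichment is a ratio over local background. The −log10 q-values are the caller's values, as deposited by the authors, and the deposited score follows the q-value. No read numbers were used, and the number of reads behind each single peak is therefore unknown. For the stages as a whole, the paper states the range of pooled read depth after libraries were brought to the median.

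Gene models were those of GENCODE M21, and sequences came from GRCm38.p6. Peaks were counted where they shared at least 1 bp with a window, a promoter (200 bp upstream of a TSS of a protein-coding transcript) or a gene, with python 3.11.15 and pandas 2.3.3. Shares carry 95% Wilson intervals (scipy 1.17.1). No test was made, since pooled lists hold no replicate error. The scripts were tested on simulated lists.

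The members, gene lists and motifs were chosen with earlier results of these data known. The rule for named features asked for Hox genes with a promoter peak, the highest regions of each cluster and stage, regions of all 4 stages and those of a single later stage. Some features that this rule names are not reported here. Of the others in the last 2 groups the highest, and those whose rank moved most, are given in full and the rest as counts and ranges. Alternatives were other q-values, equal list lengths, flanks, overlap rules, promoter windows and transcript sets.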

Additional observations from a re-analysis of the deposited data

How the results depend on the processing

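The counts of peaks, regions and Hox genes were recomputed under other settings, giving 180 values, of which 164 stayed within 1.5 times the count reported. The 16 that moved further came from 3 settings. Lists of equal length lowered the DN counts to 87 peaks in all, 21 in Hoxa, 27 in Hoxb, 19 in Hoxc and 20 in Hoxd, left 17 regions at DN alone, and raised those at DP alone to 15 and at SP8 alone to 13. For DN this cut kept peaks with a −log10 q-value of at least 8.9, and for SP8 of at least 1.33. Requiring the summit inside the promoter lowered the Hox genes with a promoter peak to 7 (DN), 6 (DP), 4 (SP4) and 4 (SP8), and the window of 500 bp on both sides of the TSS, added after seeing the data, raised them to 30, 28, 22 and 20. A q-value of at most 0.001, no flank, a flank of 50 kb, stricter merging, promoters of 1000 bp and basic transcripts moved no count further than that. The ratio of SP8 to DN was lowest in Hoxc, followed by Hoxd, Hoxb and Hoxa, under all 6 settings of the lists and windows. These include the main setting and the summit rule, which gave the same counts as the main setting, and all use the same 4 lists. With lists of equal length, the share of DN regions also called at SP8 was the same in Hoxc and Hoxd (36.8%). Counts of motifs, of peaks at microRNA and long non-coding genes, of gene lists and by position were not recomputed, apart from the relaxed CTCF form. No paired analysis was possible because the files analysed hold 1 list per stage, pooled over the mice, and values per mouse were not analysed here. A missing peak may be signal under the threshold, and low peaks, most of those in the Hox clusters, are the ones a threshold decides.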
